A study of Mus musculus with 12 samples.

Results

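A pair of mouse library groups rich in bone transcripts, labelled SB2 and BS6, was compared. The comparison takes 6 libraries, SB2-1, SB2-2 and SB2-3 against BS6-1, BS6-2 and BS6-3, out of 12 in the series, and all genes counted in them. All animals were wild-type male BALB/c mice, 8 weeks old, that had received photothrombosis (PT), in which a vessel is closed by laser light after a photosensitive dye is injected. SB2 is labelled brain cortex taken on day 2 after ischemic injury of the skull, and BS6 is labelled interparietal bone taken on day 6 after ischemic injury of the brain. The labelled tissue, the injured tissue and the day therefore all differ between the groups and cannot be told apart, and no uninjured library was analysed here. In the methods each group has 3 biological replicates, and whether a replicate is a single animal is not given in the sources used here, so p-values measure the spread between these libraries, which may be partly technical. Poly(A) RNA was sequenced, the authors deposited counts per gene symbol, and levels are given below as CPM (counts per 1000000 counts of the library, scaled with TMM factors), always in the order of replicates 1, 2 and 3.

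As background, the flat bones of the skull are made by osteoblasts, which lay down a matrix of type I collagen, and are remodelled by osteoclasts, which dissolve mineral and matrix. Between the bony plates lies marrow, where neutrophils, red blood cells and B cells are formed. Connective tissue and muscle attach to the outer face of the bone and the meninges to the inner face, so a piece of skull can carry more or less of each. In bulk RNA, fewer cells of a type and less RNA per cell cannot be told apart.

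The total count was 14495637 to 16708951 per library in SB2 and 15378006 to 16544798 in BS6, and the upper limit that 0 counts allow, 3 counts, came to 0.174 to 0.203 CPM, for counting error only. The transcripts in SB2 go against its label. In CPM of the total count, without TMM factors, Col1a1, the main collagen of bone, was at 34732 to 37487 in SB2 and at 19174 to 72773 in BS6, against 2.54 to 9.25 in the other 6 libraries. Snap25, a protein of nerve endings, was at 9.24 to 25.3 in SB2 and 16.3 to 56.8 in BS6, against 3255 to 3507 in the others. SB2 therefore stands throughout for the libraries labelled SB2, and not for cortex. The BS2 libraries, labelled interparietal bone, hold brain transcripts, and whether the SB2 and BS2 labels were exchanged could not be settled. An exchange would also change the injury that SB2 stands for.

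Within BS6, the library BS6-2 stood apart. Its Spearman correlation across 16329 genes was 0.941 with BS6-1 and 0.947 with BS6-3, while BS6-1 and BS6-3 correlated at 0.983 and each of them with the SB2 libraries at 0.962 to 0.971. More than 2-fold differences separated BS6-2 from BS6-1 in 2054 genes and from BS6-3 in 1915 genes, but BS6-1 from BS6-3 in 416 genes. Against the SB2 libraries, BS6-1 and BS6-3 differed by more than 2-fold in 802 to 1118 genes. By this measure BS6-1 and BS6-3 were closer to every SB2 library than to BS6-2. The biological coefficient of variation was 14.4% in SB2, 33.7% in BS6 and 18.5% in BS6 without BS6-2. The mitochondrial share of counts was 6.46% in BS6-2 and 3.59% to 4.51% in the others, and limma voom gave BS6-2 a quality weight of 0.173 against 0.963 to 1.88. Counts of calls are therefore given for all 6 libraries and for the 5 without BS6-2, and fold changes are from all 6 libraries unless stated.

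The quasi-likelihood test of edgeR was used, and a gene was called where its adjusted p was below 0.05 and its log2 fold change above 1 or below -1. Positive values mean higher in SB2. With all 6 libraries, 121 of 16329 genes tested were called higher in SB2 (0.741%) and 182 lower (1.11%). Without BS6-2, 270 of 16608 genes were higher (1.63%) and 397 lower (2.39%). Of the calls from 6 libraries, 100 higher and 151 lower genes were also called without BS6-2, 82.6% and 83.0% of the first fit and 37.0% and 38.0% of the second, and 0 genes were called in opposite directions. The calls from 6 libraries depended on every SB2 library. With any one SB2 library left out, 0 genes were called in either direction, and without BS6-1 or BS6-3 there were 17 higher and 15 to 17 lower. By unadjusted p under 0.05, 2383 genes were higher and 2381 lower in the fit of all 6, and 3066 and 2740 of the same 16329 genes without BS6-2. Scaling by total counts alone gave 163 genes higher and 125 lower, and DESeq2 gave 315 and 743 (316 and 429 without BS6-2). The median log2 fold change of all genes was -0.02 with and -0.01 without BS6-2. Libraries without overlap between the groups were common. Of the 16329 genes tested, 3145 were without overlap and higher in SB2, and 3058 without overlap and lower.

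**Figure D1:**
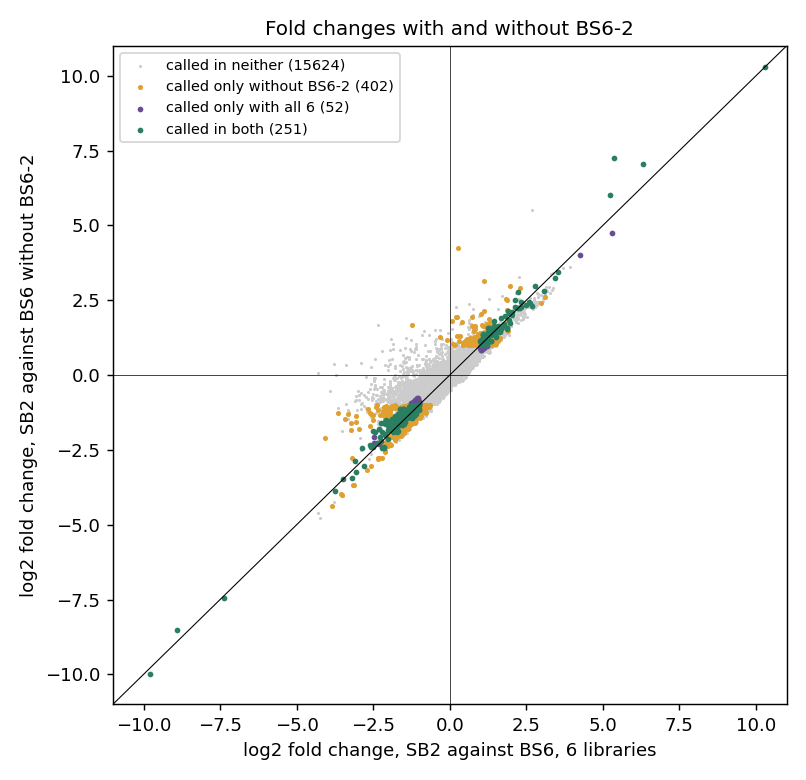
Log2 fold change of SB2 against BS6 for 16329 genes, from all 6 libraries (x axis) and without BS6-2 (y axis), where each point is a gene and colour marks in which fit it was called. The 251 genes called in both lie along the diagonal, and 402 genes were called only without BS6-2.

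Marrow content was checked first. The genes of neutrophil secondary granules, which hold the antimicrobial proteins of maturing neutrophils, summed to 2052, 2175 and 1698 CPM in SB2 and to 3363, 22252 and 4038 CPM in BS6. BS6-2 was therefore far above all other libraries, and BS6-1 and BS6-3 were still above SB2. For BS6-1 this came from the lysozyme gene Lyz2, at 1854 CPM in BS6-1 and at 737, 577 and 600 CPM in SB2. Without Lyz2 the sum of BS6-1 lay within the SB2 range, and that of BS6-3 stayed above it. Ngp was at 304, 423 and 210.1 CPM in SB2 and at 379, 6166 and 1037 CPM in BS6, and Ltf, which encodes lactoferrin, at 213, 251 and 142 CPM in SB2 and at 251, 3408 and 567 CPM in BS6. Both genes had their highest value in BS6-2, while BS6-1 lay within the SB2 range for Ngp and at its upper end for Ltf. Of the 13 tested genes of this list, 0 were called with all 6 libraries (11 lower by unadjusted p, 9 lower by DESeq2, 1 by limma voom with quality weights). Without BS6-2 only Lyz2, the lysozyme of neutrophils and macrophages, was called lower (log2 fold change -1.16, SE 0.28, edgeR adjusted p = 0.0418). The list's median log2 fold change was -2.89 with and -0.86 without BS6-2.

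The mature neutrophil list also had its highest sum in BS6-2, with 1821, 1997 and 1543 CPM in SB2 and 1867, 16746 and 2731 CPM in BS6. The sum of BS6-1 lay within the SB2 range. S100a9 alone was at 8360 CPM in BS6-2. The members Mmp9, Il1b and Clec4d were not highest in BS6-2. Mmp9 was at 935, 991 and 891 CPM in SB2 and at 903, 931 and 917 CPM in BS6. Il1b was at 51, 16.8 and 21.5 CPM in SB2 and at 14.4, 11.7 and 7.46 CPM in BS6. S100a8, a chain of calprotectin, was at 174, 209.7 and 121 CPM in SB2 and at 182, 4646 and 478 CPM in BS6. Cxcr4, a receptor that holds neutrophils in the marrow, was the only 1 of 16 genes called with all 6 libraries. It was at 18.2, 13.5 and 9.47 CPM in SB2 and at 35.3, 65.5 and 32.2 CPM in BS6, without overlap (log2 fold change -1.69, SE 0.36, edgeR adjusted p = 0.0495). Retnlg joined it without BS6-2 (log2 fold change -1.28, SE 0.30, edgeR adjusted p = 0.0474). With all 6 libraries, 1 gene of the list was higher and 9 lower by unadjusted p, and 1 higher and 6 lower by DESeq2. Of 4532 genes that averaged 50 CPM or more in BS6, 317 were more than 2 times as high in BS6-2 as in both other BS6 libraries. In the other direction, 194 were more than 2-fold lower in BS6-2 than in both. The average includes BS6-2, which favours genes high in that library, such as Asprv1 at 4.53, 285 and 5.06 CPM in BS6. The 2 counts are therefore a description. The 10 genes with the largest ratio of BS6-2 to its group were Asprv1, Ifitm6, Retnlg, Alox5ap, Cd177, Cxcr2, Pglyrp1, Fpr2, S100a8 and Prtn3. They were at 9.61 to 56.3 times the nearer of BS6-1 and BS6-3. Several of these are defining genes of neutrophils (S100a8, Cxcr2, Cd177, Prtn3).

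The red cell genes that passed the test were lower in SB2, and their number depended on the tool. The erythroid list summed to 1480.2, 4823 and 1589 CPM in SB2 and to 8948, 13354 and 8179.5 CPM in BS6, so that all BS6 libraries were above all SB2 libraries and SB2-2 was above the other SB2 libraries. Of its 12 tested genes, 2 were lower in SB2 with all 6 libraries, Epor and Hba-a2, 11 were lower by unadjusted p, 10 by DESeq2 and 8 by limma voom. Epor, the erythropoietin receptor, was at 2.08, 2.77 and 2.48 CPM in SB2 and at 15.8, 7.83 and 10.5 CPM in BS6 (log2 fold change -2.21, SE 0.31, edgeR adjusted p = 0.0306). Without BS6-2 4 were lower (8 by DESeq2), Epor, Klf1 and Ermap among them. Klf1, the transcription factor of red cell precursors, was at 0.405, 1.08 and 0.371 CPM in SB2 and at 9.86, 0.877 and 5.91 CPM in BS6. BS6-2 was thus near the SB2 level for Klf1. The beta globin gene Hbb-bs was at 841, 2963 and 966 CPM in SB2 and at 5451, 8306 and 4969 CPM in BS6, which passed the test neither with BS6-2 (log2 fold change -1.97, SE 0.55, edgeR adjusted p = 0.0842) nor without it (edgeR adjusted p = 0.177). Slc4a1, the anion exchanger of the red cell membrane, was at 1.45, 12.6 and 3.28 CPM in SB2 and at 168, 20.5 and 139.7 CPM in BS6 and did not pass either (edgeR adjusted p = 0.0681 with and 0.055 without BS6-2). The alpha and beta globin genes each have near-identical copies, so their split between copies is uncertain. The list's median was -2.40, and -2.23 without BS6-2.

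Genes of B cell precursors were at low levels. Vpreb3, a gene of the precursor list, was at 0.695, 0.81 and 0.681 CPM in SB2 and at 4.66, 1.19 and 8.57 CPM in BS6. Rag1, which cuts DNA for antigen receptor rearrangement, was at 0.463, 0.81 and 0.495 CPM in SB2 and at 2.33, 0.251 and 5.71 CPM in BS6. For Vpreb3 and Rag1, BS6-2 was at or near the SB2 level, while for Il7r it was at 8.27 CPM against 8.24 CPM in BS6-3. Of 11 tested genes of the precursor list, 0 were called with all 6 libraries (7 lower by unadjusted p, 6 by DESeq2 and 6 by limma voom), and 7 were lower without BS6-2: Vpreb3, Rag1, Dntt, Pax5, Il7r, Cd79a and Cd79b. In the list of mature B and plasma cells, Ighm and Irf4 were lower with all 6, and without BS6-2 5 were lower, with Igkc and Jchain among them. Ighm, the heavy chain of IgM, was at 34.1, 44 and 38.5 CPM in SB2 and at 81.4, 81.7 and 124 CPM in BS6 (log2 fold change -1.30, SE 0.20, edgeR adjusted p = 0.0327). Igkc, the kappa light chain, was at 10.8, 13.5 and 13.8 CPM in SB2 and at 33.8, 242 and 40.7 CPM in BS6, again with BS6-2 far above the rest (log2 fold change -3.05 with and -1.55 without it). Of 21 monocyte and macrophage genes 0 were called in either fit (8 lower by unadjusted p and 3 by DESeq2 with all 6 libraries, and without BS6-2 2 higher and 10 lower by unadjusted p and 2 lower by DESeq2).

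**Figure D2:**
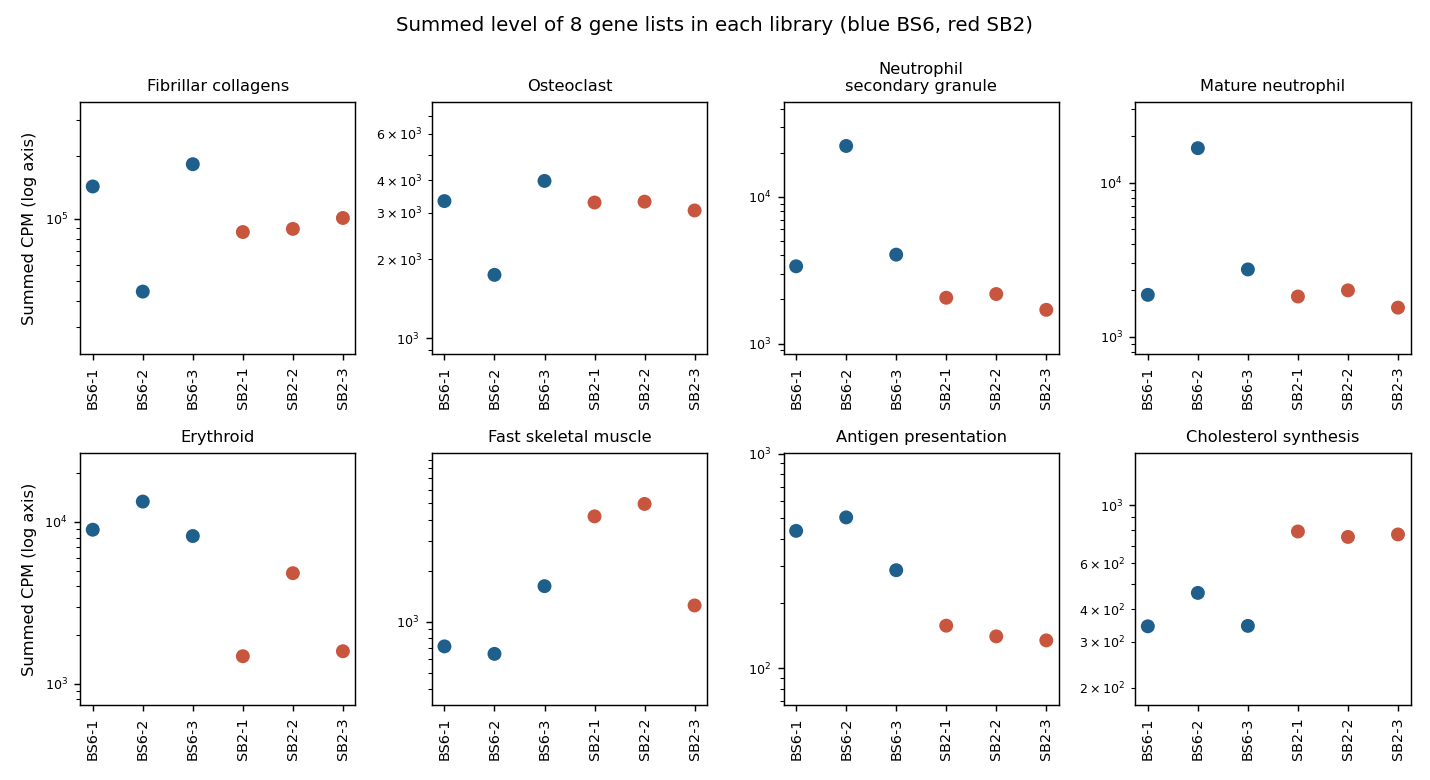
Summed CPM of 8 gene lists (log axes) in each of the 6 libraries, where each point is a library, blue for BS6 and red for SB2. BS6-2 lies apart for collagens, osteoclast and neutrophil genes, SB2-1 and SB2-2 are the highest for fast muscle, and the groups do not overlap for erythroid, antigen presentation and cholesterol synthesis genes.

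Matrix content was lowest in BS6-2. The fibrillar collagens, the rope-like collagens that give bone and fibrous tissue their strength, summed to 86376, 89449 and 100966 CPM in SB2 and to 143311, 44575 and 183497 CPM in BS6. SB2 thus lay between BS6-2 and both other BS6 libraries. The 5 genes with the highest mean were the same in both groups, Col1a1, Col1a2, Col3a1, Sparc and the mitochondrial gene mt-Co1. Col1a1 was at 34317, 33992 and 37186 CPM in SB2 and at 55235, 18694 and 78153 CPM in BS6, and its difference passed the test's fold threshold neither with BS6-2 (log2 fold change -0.53, SE 0.53, edgeR adjusted p = 0.548) nor without it (log2 fold change -0.92, SE 0.21, edgeR adjusted p = 0.0186). Col3a1, the collagen of soft connective tissue, was at 14649, 16745 and 19984 CPM in SB2 and at 21573, 2067 and 12356 CPM in BS6 (log2 fold change 0.51, SE 0.75, edgeR adjusted p = 0.686). Of 10 tested collagens, 0 were called with all 6 libraries (1 lower by unadjusted p, 1 by DESeq2, 2 by limma voom), and 3 were lower in SB2 without BS6-2. Col11a2, a minor fibril collagen, was at 661, 810.4 and 675 CPM in SB2 and at 1673, 911 and 3379 CPM in BS6 (log2 fold change -1.82, SE 0.31, edgeR adjusted p = 0.0155 without BS6-2), and Col1a2 and Col11a1 were the others, with log2 fold changes of -1.06 and -1.07. Among genes lowest in BS6-2 against its own group were Dpt, Cthrc1, Slc4a1, Postn, Col16a1, Col3a1, Col6a3, Aplnr, Prss35 and Ssc5d, at 0.107 to 0.199 times the nearer of BS6-1 and BS6-3. Of these, Postn, Col16a1, Col3a1 and Col6a3 are in the collagen and matrix glycoprotein lists, and Slc4a1 is in the erythroid list. Enrichment was not tested.

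The cells that make bone were not uniformly different. Of 13 tested osteoblast and osteocyte genes, 1 was called with all 6 libraries, Kcnk2, a potassium channel gene, which was lower in SB2 at 10.5, 8.91 and 8.42 CPM in SB2 and at 29.9, 21.5 and 25.1 CPM in BS6 (log2 fold change -1.45, SE 0.17, edgeR adjusted p = 0.0276). Without BS6-2, Phex and Sost, both genes of osteocytes, were also lower. Sost, which encodes the Wnt inhibitor sclerostin, was at 0.695, 1.15 and 2.04 CPM in SB2 and at 7.53, 1.88 and 10.3 CPM in BS6 (log2 fold change -2.78, SE 0.39, edgeR adjusted p = 0.00442 without BS6-2). The other genes called in that fit, Ibsp and Tnn, were higher in SB2. Ibsp, bone sialoprotein, was at 3600.3, 2144 and 4042 CPM in SB2 and at 822, 509 and 1351 CPM in BS6, so that the lowest SB2 library was above the highest BS6 library (log2 fold change 1.59, SE 0.37, edgeR adjusted p = 0.0387 without BS6-2, and adjusted p = 0.0558 by edgeR with it). Spp1, osteopontin, was at 4097, 2838 and 3238 CPM in SB2 and at 2137, 3363 and 3783 CPM in BS6 and overlapped between the groups. The defining osteoblast gene Bglap and the bone genes Mepe and Ifitm5 were not analysed here.

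Of 16 osteoclast genes, 0 were called with all 6 libraries (2 lower by unadjusted p, 1 by DESeq2 and 1 by limma voom). Ctsk, the collagen-cutting protease of osteoclasts, was at 1393, 1429 and 1308 CPM in SB2 and at 1376, 406 and 1705 CPM in BS6, with BS6-2 alone below the others. Car2, the carbonic anhydrase that supplies acid for resorption and is also a red cell gene, was lower in SB2 without BS6-2, at 35, 36.1 and 30.4 CPM in SB2 and at 146, 29.3 and 111 CPM in BS6 (log2 fold change -1.92, SE 0.13, edgeR adjusted p = 0.000538). In the cartilage list the directions were mixed. Col2a1, the cartilage collagen, was lower in SB2 at 6.02, 8.98 and 8.36 CPM in SB2 and at 47.4, 20.4 and 36.7 CPM in BS6 (log2 fold change -2.16, SE 0.34, edgeR adjusted p = 0.0327), while Acan and Hapln1, which form the proteoglycan gel, were higher without BS6-2. Hapln1 was at 48.2, 53.2 and 53.3 CPM in SB2 and at 16.3, 4.7 and 20.5 CPM in BS6 (log2 fold change 1.49, SE 0.12, edgeR adjusted p = 0.000901 without BS6-2).

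Muscle content followed single libraries. The fast skeletal muscle list summed to 4174, 4941 and 1247 CPM in SB2 and to 715, 646 and 1619.8 CPM in BS6, so that SB2-1 and SB2-2 were the highest, while SB2-3 lay below BS6-3. Acta1, skeletal muscle actin, was at 665, 786 and 86.9 CPM in SB2 and at 20.5, 14.2 and 169 CPM in BS6. Ckm, muscle creatine kinase, was at 170.4, 208 and 22.7 CPM in SB2 and at 8.93, 6.89 and 40.05 CPM in BS6. The groups overlapped in both genes. Of 16 tested genes 0 were called in either fit, although 9 were higher by unadjusted p, 5 by DESeq2 and 0 by limma voom with all 6 libraries (1 by unadjusted p and 0 by DESeq2 without BS6-2), and the median log2 fold change was 2.44. Of 15 genes common to striated muscle 0 were called as well (9 higher by unadjusted p, 7 by DESeq2 and 0 by limma voom with all 6 libraries, and 0 by unadjusted p and by DESeq2 without BS6-2). In the list of muscle growth and repair, Myh8, a myosin of immature muscle, was higher in SB2 at 4.05, 2.57 and 1.11 CPM in SB2 and at 0.267, 0.188 and 0.195 CPM in BS6 (log2 fold change 3.53, SE 0.59, edgeR adjusted p = 0.0344). Fbxo32, which marks muscle proteins for breakdown, was lower at 20.3, 27.7 and 22.6 CPM in SB2 and at 54.2, 36.3 and 61 CPM in BS6 (log2 fold change -1.10, SE 0.22, edgeR adjusted p = 0.0455), and the third tested gene of this list was not called. Among smooth muscle genes, Acta2 was higher in SB2 at 634, 569 and 589 CPM in SB2 and at 325, 238 and 277 CPM in BS6 (log2 fold change 1.09, SE 0.15, edgeR adjusted p = 0.0306) and Myh11 lower at 50.6, 73.6 and 60.8 CPM in SB2 and at 126, 158 and 146 CPM in BS6 (log2 fold change -1.22, SE 0.17, edgeR adjusted p = 0.0304). The call of Acta2 was lost without BS6-2, where its log2 fold change was 0.99.

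Single genes were then ranked by the size of their difference. Among genes called in both fits whose higher group averaged 50 CPM or more and whose libraries did not overlap, 73 qualified, 28 higher and 45 lower in SB2. The first was Prg4 (chr1:150449412-150466165, minus strand, mm10), which encodes lubricin, the lubricant of joints and tendons. It was at 1017, 971 and 1547 CPM in SB2 and at 15.7, 57.7 and 20.6 CPM in BS6 (log2 fold change 5.23, SE 0.60, edgeR adjusted p = 0.0276, and 6.02 without BS6-2), a fold change of 37.6. Timp1, an inhibitor of matrix metalloproteinases, was at 815, 561 and 892 CPM in SB2 and at 145, 49 and 159 CPM in BS6 (log2 fold change 2.68, SE 0.47, edgeR adjusted p = 0.0375). Serpina3n, a protease inhibitor of the acute phase response, was at 139, 176 and 157 CPM in SB2 and at 17, 54.4 and 28.9 CPM in BS6 (log2 fold change 2.23, SE 0.41, edgeR adjusted p = 0.0403). In all 3 genes every SB2 library was above every BS6 library, as the rule required, and BS6-2 was the BS6 library farthest from the others.

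Smaller fold changes followed. Dio2, the deiodinase that activates thyroid hormone, was at 123, 111 and 94.9 CPM in SB2 and at 20.5, 23.6 and 26.1 CPM in BS6 (log2 fold change 2.23, SE 0.15, edgeR adjusted p = 0.0097). Kcnj15, a potassium channel gene, was at 119, 108 and 116 CPM in SB2 and at 22.6, 31.4 and 24.7 CPM in BS6 (log2 fold change 2.12, SE 0.15, edgeR adjusted p = 0.0103). Sfrp4, a secreted Wnt inhibitor, was at 643, 630.0 and 653 CPM in SB2 and at 121, 152 and 197 CPM in BS6 (log2 fold change 2.04, SE 0.20, edgeR adjusted p = 0.0194). Cxcl14, a chemokine, was at 379, 296 and 299 CPM in SB2 and at 59.5, 74.1 and 121 CPM in BS6 (log2 fold change 1.94, SE 0.28, edgeR adjusted p = 0.0311). The other 3 were Tubb6, Cyp51 and Sqle, described with their lists below. Among matrix proteases and inhibitors, Timp1 and the aggrecanase gene Adamts1 were the 2 of 19 called higher with all 6 libraries, and Mmp13 joined them without BS6-2. Mmp13, collagenase 3, was at 5698, 3669 and 4599 CPM in SB2 and at 2150.1, 834 and 2306 CPM in BS6 (log2 fold change 1.06, SE 0.19, edgeR adjusted p = 0.00858 without BS6-2).

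**Figure D3:**
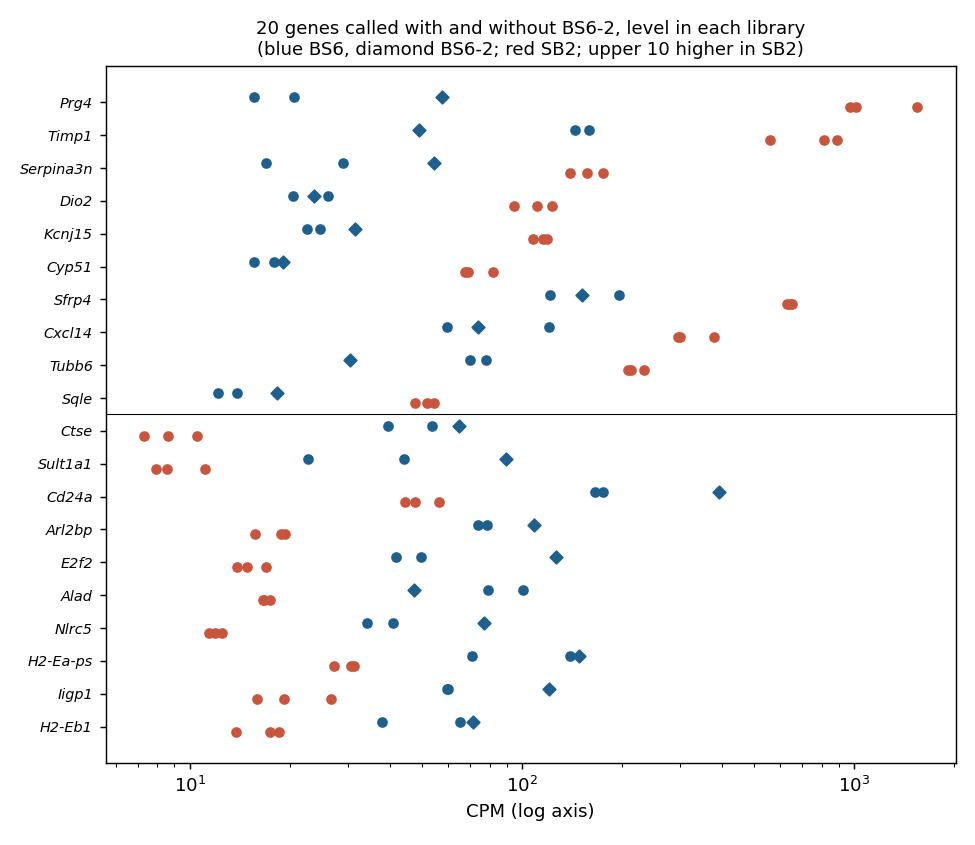
CPM (log axis) of the 20 genes named by rule in each library, blue for BS6 with a diamond for BS6-2 and red for SB2, where the upper 10 were higher and the lower 10 lower in SB2. The groups do not overlap for any of the 20, as the rule required, and Prg4 is the farthest apart, at 971 to 1547 CPM in SB2 and 15.7 to 57.7 CPM in BS6.

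Genes of cholesterol synthesis, uptake and efflux were counted next. These lists were drawn up after the values had been seen, so their counts are a description. Of 21 tested genes of cholesterol synthesis, 8 were higher in SB2 with all 6 libraries and 11 without BS6-2, and 0 were lower in either fit. The median log2 fold change was 1.05, or 1.17 without BS6-2. The summed level was 792, 755 and 772 CPM in SB2 and 344, 461 and 345 CPM in BS6. The 8 genes were Hmgcs1, Idi1, Fdft1, Sqle, Lss, Cyp51, Nsdhl and Hsd17b7, and Fdps and Msmo1 were among those called only without BS6-2.

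Hmgcs1, which makes the HMG-CoA from which the pathway starts, was at 106, 106 and 119 CPM in SB2 and at 37.4, 40.5 and 32.7 CPM in BS6 (log2 fold change 1.58, SE 0.12, edgeR adjusted p = 0.011). Sqle, the squalene epoxidase that commits carbon to sterols, was at 54.5, 51.9 and 47.6 CPM in SB2 and at 12.2, 18.3 and 13.9 CPM in BS6 (log2 fold change 1.79, SE 0.17, edgeR adjusted p = 0.0194). Cyp51, which removes a methyl group from lanosterol, was at 82, 67.3 and 69 CPM in SB2 and at 18, 19.2 and 15.6 CPM in BS6 (log2 fold change 2.05, SE 0.13, edgeR adjusted p = 0.0097). In each of these genes the SB2 libraries lay close together and well above BS6. Of 8 tested genes of sterol uptake and regulation, 2 were higher with all 6 libraries and 1 without BS6-2, and 0 were lower. Insig1, which holds back the sterol sensor, was higher with all 6 libraries at 70.4, 75.9 and 74.3 CPM in SB2 and at 34.3, 30.4 and 44 CPM in BS6 (log2 fold change 1.02, SE 0.15, edgeR adjusted p = 0.0311). It lost its call without BS6-2 at a log2 fold change of 0.91, while the regulator genes Srebf1 and Scap were not called in either fit.

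The genes of cholesterol efflux that passed the test were lower in SB2. Of 8 tested genes 4 were called in each fit, with a median of -0.91 with all 6 libraries. Abca1, the transporter that loads cholesterol onto lipoproteins, was at 95.8, 91.1 and 85.7 CPM in SB2 and at 212, 204 and 237 CPM in BS6 (log2 fold change -1.26, SE 0.11, edgeR adjusted p = 0.0184). Apoe, a carrier of cholesterol secreted by macrophages, was at 640.2, 777 and 639.8 CPM in SB2 and at 2015, 2179.5 and 1796 CPM in BS6 (log2 fold change -1.54, SE 0.17, edgeR adjusted p = 0.0263). Neither gene overlapped between groups, and BS6-2 stood among the other BS6 libraries for both. Abcg1 and Cyp27a1 were the other 2 with all 6 libraries, and Pltp took the place of Abcg1 without BS6-2.

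**Figure D4:**
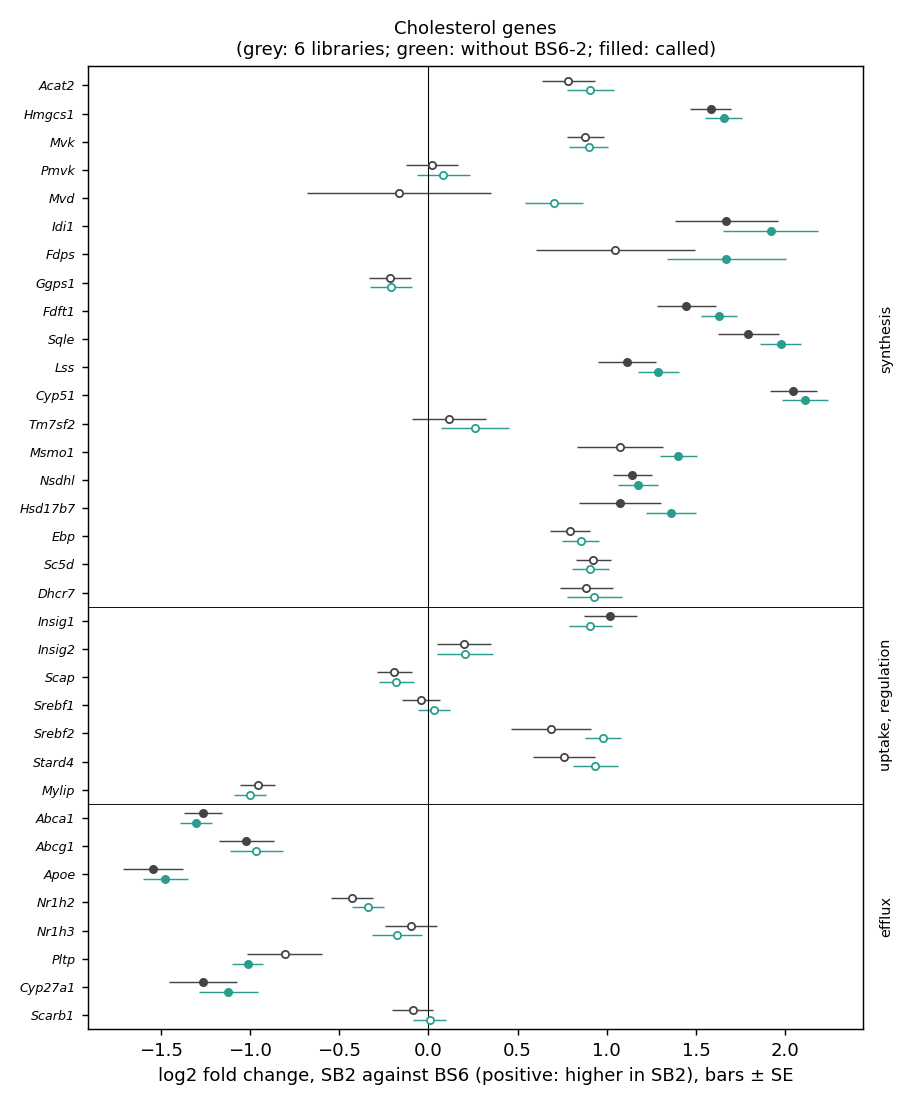
Log2 fold change of SB2 against BS6 (x axis, bars ± SE) for genes of cholesterol synthesis, uptake and regulation, and efflux, in grey from 6 libraries and in green without BS6-2, filled where called (some members are not drawn). Called synthesis and uptake genes lie to the right, up to 2.05 for Cyp51, and called efflux genes to the left, down to -1.54 for Apoe with all 6 libraries.

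The promoters of these genes (250 bases before to 50 after the start site, RefSeq, build GRCm38.p6) were searched on both strands for the sterol regulatory element TCACNCCAC, where N is any base. The letters were found in 1.24% of all 32851 promoters. They stood in 1 of the 16 synthesis genes with a promoter in the table, Hmgcs1. The promoter of Hmgcs1 (chr13:119690101-119690400, plus strand) is shown because it holds the match, in capitals, starting 137 bases before the start site.
Hmgcs1: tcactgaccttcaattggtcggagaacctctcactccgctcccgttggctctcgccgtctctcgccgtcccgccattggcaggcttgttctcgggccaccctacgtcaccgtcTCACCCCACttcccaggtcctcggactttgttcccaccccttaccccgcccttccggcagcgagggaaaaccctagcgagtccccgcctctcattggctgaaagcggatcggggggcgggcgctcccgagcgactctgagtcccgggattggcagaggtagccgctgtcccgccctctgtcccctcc
A match is a description and not a bound site.

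The antigen presentation genes that passed the test were lower in SB2. MHC class II molecules carry peptides to helper T cells and are made by dendritic cells, B cells and macrophages. Of 13 tested genes of the antigen presentation list, 5 were lower in SB2 in each fit and 0 were higher, with a median of -1.30, or -1.19 without BS6-2. Cd74, the invariant chain that guides class II through the cell, was at 57.7, 52.4 and 49.2 CPM in SB2 and at 193, 226 and 125 CPM in BS6 (log2 fold change -1.77, SE 0.23, edgeR adjusted p = 0.0293). H2-Eb1, a class II beta chain, was at 18.6, 13.8 and 17.5 CPM in SB2 and at 65.2, 71.2 and 38 CPM in BS6 (log2 fold change -1.80, SE 0.26, edgeR adjusted p = 0.0311). Irf8, a transcription factor of dendritic cells and monocytes, was at 22.2, 24.1 and 18.2 CPM in SB2 and at 49.97, 84.9 and 49.7 CPM in BS6 (log2 fold change -1.52, SE 0.25, edgeR adjusted p = 0.0341). The other 2 were H2-Ab1 and Cd209a. The B cell genes Ighm and Irf4 were lower as well, and 8 of 21 macrophage genes were lower by unadjusted p with all 6 libraries. The part of these cells in the result was not tested.

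In the class I list, put together after the values had been seen, 9 of 17 tested genes were lower in SB2 with all 6 libraries and 7 without BS6-2, and 0 were higher. Class I molecules show peptides of the cell's own proteins to killer T cells. H2-D1, a classical class I heavy chain, was at 179.8, 168 and 168 CPM in SB2 and at 375, 581 and 289 CPM in BS6 (log2 fold change -1.27, SE 0.26, edgeR adjusted p = 0.0458; -0.95 without BS6-2, where the call was lost). B2m, the light chain of all class I molecules, was at 489, 455 and 532 CPM in SB2 and at 1016, 830.3 and 821 CPM in BS6, under the fold threshold (log2 fold change -0.85, SE 0.15, edgeR adjusted p = 0.037). Nlrc5, the transcriptional activator of class I genes, was at 11.9, 12.5 and 11.5 CPM in SB2 and at 40.9, 76.7 and 34.2 CPM in BS6 (log2 fold change -2.08, SE 0.32, edgeR adjusted p = 0.0325). H2-T23, which encodes Qa-1, was at 54.1, 62.7 and 57.5 CPM in SB2 and at 135, 207 and 202 CPM in BS6 (log2 fold change -1.64, SE 0.18, edgeR adjusted p = 0.0276). The antigen transporter gene Tap1 and the immunoproteasome gene Psmb8 were lower in both fits.

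H2-Q7, which encodes part of Qa-2, was at the limit of detection in SB2. It had 1, 1 and 0 counts in SB2 and 324, 546 and 227 counts in BS6. In the other groups it was also split by day, with 0, 1 and 0 counts in BS2 (day 2) and 22, 41 and 4 in SB4 (day 4), and whether all animals came from 1 stock is not given. Over each group these are 2 and 1097 counts, a ratio of 571 after scaling, with an exact 95% interval for counting error of 158 to 4717. Its neighbour H2-Q6 was at 5.56, 4.46 and 5.94 CPM in SB2 and at 46.7, 59.6 and 31.1 CPM in BS6 (log2 fold change -3.10, SE 0.27, edgeR adjusted p = 0.0194). Class I genes are close copies of each other, and reads could be split between them in an unknown way.

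**Figure D5:**
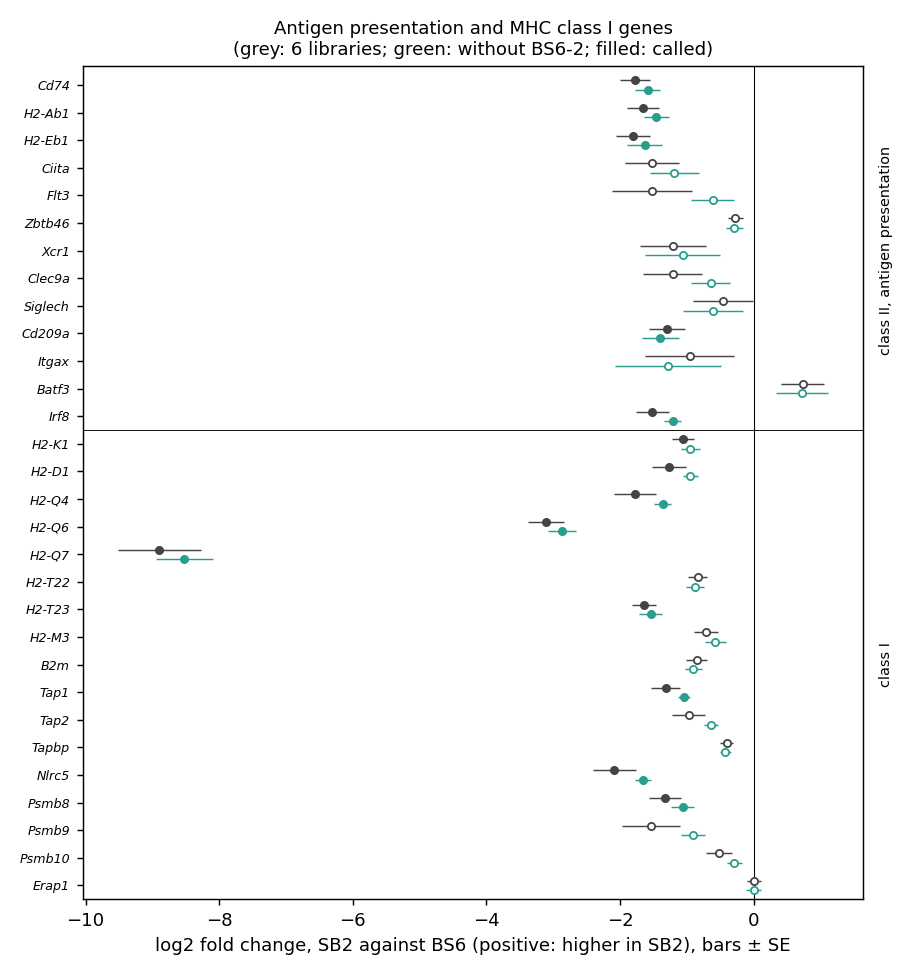
Log2 fold change of SB2 against BS6 (x axis, bars ± SE) for antigen presentation and MHC class I genes, in grey from 6 libraries and in green without BS6-2, filled where called. Called genes all lie to the left of 0, and H2-Q7, at 0 or 1 count in each SB2 library, is the farthest, at a fitted -8.90 with all 6 libraries that depends on the prior count.

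The genes induced by interferon that passed the test were lower in SB2, with 1 exception. Of 28 tested genes, 6 were lower and 1 higher with all 6 libraries, and 7 and 1 without BS6-2, with medians of -0.97 and -1.09. The 6 were Igtp, Iigp1, Irgm1, Ifi47, Tap1 and Psmb8. Igtp, an immunity-related GTPase, was at 17, 18.6 and 17.8 CPM in SB2 and at 38.8, 90.9 and 54.9 CPM in BS6 (log2 fold change -1.79, SE 0.31, edgeR adjusted p = 0.0365). Irgm1, of the same family, was at 39.3, 43.2 and 44.5 CPM in SB2 and at 71.6, 95.8 and 112 CPM in BS6 (log2 fold change -1.14, SE 0.17, edgeR adjusted p = 0.0319). In these GTPases the libraries did not overlap, which was also so for 3058 lower and 3145 higher genes of all 16329 tested. Among genes of the antiviral response to type I interferon, Ifit3 and Rsad2 varied between the BS6 libraries. Ifit3 was at 22.7, 19.1 and 33.5 CPM in SB2 and at 26.1, 15.7 and 104 CPM in BS6, with BS6-3 alone high (log2 fold change -0.95, SE 0.70, edgeR adjusted p = 0.405), and Rsad2 at 11.2, 13.3 and 19 CPM in SB2 and at 40.3, 16.7 and 74.6 CPM in BS6, called lower only without BS6-2 (log2 fold change -1.99, SE 0.36, edgeR adjusted p = 0.0268).

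The exception was Oas1a, an antiviral enzyme gene (chr5:120896256-120907521, minus strand, mm10), with 179, 146 and 157 counts in SB2 and 0 counts in every BS6 library. It was at 10.4, 9.86 and 9.72 CPM in SB2, at least 51.4-fold higher than in BS6, taking the limit of 3 counts per library. Oas1a has close paralogs. It was also split by day in the other groups, with 4, 8 and 5 counts in BS2 (day 2) and 0 in each SB4 library (day 4), and day and stock of the animals cannot be told apart. The interferon-stimulated element, read as GAAA and GAAA with any 2 bases between them, was searched on both strands in the same promoter windows. It was present in 3.44% of all promoters, in 12 of 23 list genes with a promoter in the table and in 3 of the 6 called ones with a promoter. These 3 were Igtp and Irgm1, which were lower in SB2, and Oas1a, which was higher. Their promoters are shown to set the opposite directions beside the shared letters, with each match in capitals, where overlapping matches run together, at chr11:58199306-58199605, plus strand for Igtp, chr11:48871371-48871670, minus strand for Irgm1 and chr5:120907476-120907775, minus strand for Oas1a (RefSeq, GRCm38.p6).
Igtp: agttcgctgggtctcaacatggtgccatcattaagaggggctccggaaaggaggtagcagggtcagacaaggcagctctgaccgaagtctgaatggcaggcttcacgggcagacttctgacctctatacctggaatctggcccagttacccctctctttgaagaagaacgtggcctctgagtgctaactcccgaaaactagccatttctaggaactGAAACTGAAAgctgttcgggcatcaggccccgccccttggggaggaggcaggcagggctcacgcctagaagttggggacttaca
Irgm1: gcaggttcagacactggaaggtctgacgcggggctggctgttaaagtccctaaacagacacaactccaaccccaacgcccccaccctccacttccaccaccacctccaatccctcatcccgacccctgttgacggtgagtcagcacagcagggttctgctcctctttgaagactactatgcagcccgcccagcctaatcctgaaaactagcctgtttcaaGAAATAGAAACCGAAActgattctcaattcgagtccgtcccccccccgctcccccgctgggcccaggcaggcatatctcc
Oas1a: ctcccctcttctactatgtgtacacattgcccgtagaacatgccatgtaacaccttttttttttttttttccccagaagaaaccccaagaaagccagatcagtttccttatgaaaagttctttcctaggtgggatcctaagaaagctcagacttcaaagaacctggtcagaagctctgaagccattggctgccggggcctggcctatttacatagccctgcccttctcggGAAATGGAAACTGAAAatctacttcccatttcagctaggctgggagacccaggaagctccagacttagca
The match in Igtp starts 34 bases before the start site, those in Irgm1 30 and 24 bases before it, and those in Oas1a 20 and 14 bases before it.

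For class II genes the letters CTGATTGG of the Y box, which binds NF-Y, were searched in the same way, and 4.10% of all promoters hold them. Of 10 antigen presentation genes with a promoter in the table, 2 held them, Irf8 and H2-Eb1. The promoter of H2-Eb1 (chr17:34305617-34305916, plus strand) is shown as the class II gene with the match, in capitals, 62 bases before the start site.
H2-Eb1: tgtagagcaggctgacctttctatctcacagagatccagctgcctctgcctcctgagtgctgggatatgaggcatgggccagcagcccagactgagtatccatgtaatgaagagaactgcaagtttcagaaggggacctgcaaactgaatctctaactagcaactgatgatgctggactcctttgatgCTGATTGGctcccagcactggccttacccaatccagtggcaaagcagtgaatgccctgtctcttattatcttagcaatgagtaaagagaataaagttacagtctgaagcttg
Both genes were among the 3 called members with a promoter in the table.

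Of the 10 genes with the lowest log2 fold change by the same rule, H2-Eb1, Nlrc5 and Iigp1 have been given or named above, and H2-Ea-ps, a class II gene annotated as a polymorphic pseudogene, was lower with them (log2 fold change -2.01, SE 0.29, edgeR adjusted p = 0.0311). Ctse, an intracellular protease of red cells and immune cells, was at 8.63, 10.5 and 7.3 CPM in SB2 and at 39.6, 64.7 and 53.6 CPM in BS6 (log2 fold change -2.58, SE 0.23, edgeR adjusted p = 0.0194). Alad, an enzyme of heme synthesis, was at 16.6, 17.4 and 16.8 CPM in SB2 and at 101, 47.4 and 79.1 CPM in BS6 (log2 fold change -2.16, SE 0.27, edgeR adjusted p = 0.0293). Within BS6, Alad was lowest in BS6-2, where the erythroid sum was highest. Cd24a, a surface protein of precursor blood cells, was at 44.4, 56.4 and 47.7 CPM in SB2 and at 166, 392 and 176 CPM in BS6 (log2 fold change -2.31, SE 0.37, edgeR adjusted p = 0.033), and E2f2, a cell cycle transcription factor, at 14.9, 16.9 and 13.9 CPM in SB2 and at 41.8, 127 and 49.8 CPM in BS6 (log2 fold change -2.26, SE 0.44, edgeR adjusted p = 0.044). For both genes BS6-2 was more than 2 times the other BS6 libraries, and the log2 fold changes without it were -1.79 and -1.59. A call without BS6-2 was part of the rule that named Cd24a and E2f2. Arl2bp, which binds a small GTPase, was at 15.7, 18.8 and 19.4 CPM in SB2 and at 74, 109 and 78.3 CPM in BS6 (log2 fold change -2.27, SE 0.18, edgeR adjusted p = 0.0164), and Sult1a1, a sulfotransferase, at 8.57, 11.1 and 7.92 CPM in SB2 and at 22.8, 89.96 and 44.2 CPM in BS6 (log2 fold change -2.51, SE 0.50, edgeR adjusted p = 0.0456; -1.86 without BS6-2). For Ctse, Sult1a1, E2f2 and Nlrc5 the BS6 mean reached 50 CPM only with BS6-2. Without it their means were 46.6, 33.5, 45.8 and 37.6 CPM.

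The number of cell division genes called differed with and without BS6-2. With all 6 libraries 2 of 23 tested cell cycle genes were higher in SB2, Kif20a and Tyms, and without BS6-2 10 were, with medians of 0.53 and 0.95 and 0 lower. Mcm5, part of the replication helicase, was at 86.1, 75.4 and 80.7 CPM in SB2 and at 39, 72.7 and 34.8 CPM in BS6. BS6-2 was near SB2 for this gene (log2 fold change 0.73, SE 0.28, edgeR adjusted p = 0.155; log2 fold change 1.13, SE 0.10, edgeR adjusted p = 0.00104 without BS6-2). Mki67, a common marker of division, was at 171, 162 and 178 CPM in SB2 and at 166, 322 and 143 CPM in BS6 and was called in neither fit. With all 6 libraries it had the only negative log2 fold change of the list, against 22 positive, and limma voom called 9 genes higher. Without BS6-2 all 23 were positive, and 22 were higher by adjusted p alone. Of 12 tubulin genes, a list also put together after the values had been seen, 4 were higher with all 6 libraries and 5 without BS6-2. Tubb6 was at 233, 209.6 and 214 CPM in SB2 and at 78, 30.5 and 69.6 CPM in BS6 (log2 fold change 1.88, SE 0.34, edgeR adjusted p = 0.0395), and Tubb5 at 862, 733 and 804 CPM in SB2 and at 422, 398 and 367 CPM in BS6 (log2 fold change 1.01, SE 0.13, edgeR adjusted p = 0.0293).

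A list of endoplasmic reticulum stress genes holds chaperones, which fold secreted proteins, and stress-induced genes. Of its 20 tested genes 4 were higher in SB2 with all 6 libraries, Hsp90b1, Calr, Pdia4 and Pdia6, and the last 2 of these without BS6-2. Pdia4, a disulfide isomerase, was at 219, 173 and 229 CPM in SB2 and at 105, 69.7 and 87.4 CPM in BS6 (log2 fold change 1.25, SE 0.19, edgeR adjusted p = 0.0312). Calr, calreticulin, was at 1061, 954 and 1152 CPM in SB2 and at 583, 477 and 489 CPM in BS6 (log2 fold change 1.03, SE 0.15, edgeR adjusted p = 0.0311; 0.98 without BS6-2). The stress-induced gene Ddit3 of the same list was at 14.1, 13.8 and 13.7 CPM in SB2 and at 16, 14.4 and 16.6 CPM in BS6 and was called in neither fit. Of 16 heat shock genes only Hspd1, the mitochondrial chaperonin, was called, at 239, 191 and 224 CPM in SB2 and at 113, 95 and 95.8 CPM in BS6 (log2 fold change 1.10, SE 0.13, edgeR adjusted p = 0.0276).

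Inflammatory genes were counted with and without BS6-2. Of 18 tested cytokine and mediator genes, Il6 and Ptgs2 were higher with all 6 libraries (7 higher and 1 lower by DESeq2), and 1, Socs3, without BS6-2 (5 higher by DESeq2). Il6 was at 23.6, 3.24 and 10.3 CPM in SB2 and at 0.8, 0.439 and 0.714 CPM in BS6 (log2 fold change 4.24, SE 0.80, edgeR adjusted p = 0.0407; log2 fold change 4.02, SE 1.19, edgeR adjusted p = 0.0976 without BS6-2). Ptgs2, the inducible cyclooxygenase, was at 97.7, 32.8 and 65.9 CPM in SB2 and at 9.26, 12.5 and 17.6 CPM in BS6 (log2 fold change 2.32, SE 0.44, edgeR adjusted p = 0.0409; 2.29 without BS6-2). SB2-1 was the highest and SB2-2 the lowest of the group for both genes. Socs3, a feedback inhibitor of cytokine signals, was at 118, 84.6 and 98.4 CPM in SB2 and at 37.1, 66.2 and 43.2 CPM in BS6 (log2 fold change 1.04, SE 0.24, edgeR adjusted p = 0.0603; log2 fold change 1.32, SE 0.15, edgeR adjusted p = 0.00257 without BS6-2).

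Some genes of the signals that regulate bone passed the test. Over all genes tested with 6 libraries, 0.741% were called higher and 1.11% lower. In the Wnt list Wnt7b and Sfrp4 were higher in both fits, 2 of 19 genes. Wnt7b, a ligand that drives bone formation, was at 12.6, 10.5 and 11.2 CPM in SB2 and at 0.333, 0.752 and 2.08 CPM in BS6 (log2 fold change 3.43, SE 0.57, edgeR adjusted p = 0.0346). In the list of bone morphogenetic proteins and transforming growth factor beta, 2 of 22 genes were lower and 0 higher with all 6 libraries, and 1 was lower and 1 higher without BS6-2. Nog, which encodes the antagonist noggin, was at 9.03, 11.3 and 9.47 CPM in SB2 and at 17.2, 30.1 and 33.7 CPM in BS6 (log2 fold change -1.44, SE 0.27, edgeR adjusted p = 0.0399), and Bmp4, one of the ligands noggin binds, at 18.1, 13.6 and 12.9 CPM in SB2 and at 24.5, 36.9 and 29.3 CPM in BS6 (log2 fold change -1.02, SE 0.21, edgeR adjusted p = 0.0447). The call of Bmp4 was lost without BS6-2, at a log2 fold change of -0.85. The higher gene was Inhba, a subunit of activin, at 137, 66.2 and 101 CPM in SB2 and at 28.6, 57 and 36.7 CPM in BS6 (log2 fold change 1.63, SE 0.37, edgeR adjusted p = 0.0489 without BS6-2).

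Brain cell genes were then compared. The neuron list summed to 321, 283 and 291 CPM in SB2 and to 265, 269 and 242 CPM in BS6, with 1 of 12 tested genes higher in SB2, Tubb3. Of the 12, 6 had a positive and 6 a negative log2 fold change. Thy1, also a gene of the periosteum list, was at 120, 135 and 119 CPM in SB2 and at 88.5, 30.2 and 67.7 CPM in BS6. Without Thy1 the sums overlapped between the groups. Snap25 was at 22.2, 9.05 and 25.1 CPM in SB2 and at 16.7, 55.4 and 25.4 CPM in BS6. The oligodendrocyte list summed to 113, 215 and 122 CPM in SB2 and to 139, 314 and 126 CPM in BS6. Both were highest in BS6-2. Of 9 astrocyte genes 0 were called with all 6 libraries (2 lower by unadjusted p and by DESeq2), and Aqp4 and Aldh1l1 were higher without BS6-2. Aqp4 was at 9.26, 5.67 and 4.21 CPM in SB2 and at 2.8, 10.1 and 2.34 CPM in BS6 (log2 fold change 0.32 with and 1.31 without BS6-2). The astrocyte list summed to 786, 797 and 906 CPM in SB2 and to 588, 490.4 and 802 CPM in BS6, most of it in 5 of the 6 libraries from Gja1, a gap junction gene that bone cells also use. Gja1 was at 645, 682 and 805 CPM in SB2 and at 458, 182 and 675 CPM in BS6. Of 16 endothelial genes 0 were called in either fit (2 higher and 1 lower by unadjusted p with all 6 libraries and 2 and 2 without BS6-2, 0 by DESeq2 in both). Of 22 apoptosis genes 0 were called in either fit (2 higher and 1 lower by unadjusted p with all 6 libraries and 1 and 3 without BS6-2, 0 by DESeq2 in both). Of 11 tested fat cell genes, 2 were higher in SB2 in both fits, Plin1 and Cidec, and 0 lower. Plin1, which coats lipid droplets, was at 1.16, 2.16 and 2.66 CPM in SB2 and at 0.2, 0.251 and 0.519 CPM in BS6 (log2 fold change 2.59, SE 0.51, edgeR adjusted p = 0.0418).

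Genes of the meninges, the membranes on the inner face of the skull, had their highest summed level in BS6-2. Their list summed to 795, 533 and 502 CPM in SB2 and to 321, 1644 and 523 CPM in BS6. Ptgds, a prostaglandin synthase of the meninges, was at 502, 314 and 276 CPM in SB2 and at 98.9, 1169 and 216 CPM in BS6 and was called in neither fit. Of 13 tested genes 1 was higher and 1 lower with all 6 libraries, and 1 higher without BS6-2. Slc7a11, a cystine transporter, was the higher one at 27.3, 13.2 and 17.2 CPM in SB2 and at 7, 8.58 and 6.69 CPM in BS6 (log2 fold change 1.38, SE 0.29, edgeR adjusted p = 0.0486), and Slc47a1, an exporter of organic cations, the lower one at 72.5, 78.9 and 70.6 CPM in SB2 and at 117, 225 and 159 CPM in BS6 (log2 fold change -1.17, SE 0.24, edgeR adjusted p = 0.0457; -0.90 without BS6-2, under the fold threshold).

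Lists of energy metabolism were compared next. Of 22 tested genes of oxidative phosphorylation, 0 were called in either fit (12 higher by unadjusted p and 1 by DESeq2 with all 6 libraries, and 16 and 0 without BS6-2). By adjusted p alone 13 were higher without BS6-2, at a list median of 0.47. Of 18 glycolysis genes 0 were called in either fit (5 higher by unadjusted p and 2 by DESeq2 with all 6 libraries, and 10 and 1 without BS6-2). Of 21 hypoxia genes 0 were called in either fit (4 higher and 3 lower by unadjusted p and 1 higher by DESeq2 with all 6 libraries, and 11, 4 and 2 without BS6-2).

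Of 10 tested T cell genes 0 were called with all 6 libraries (4 lower by unadjusted p, 1 by DESeq2), and Lck, a kinase of the T cell receptor, was lower without BS6-2 (log2 fold change -1.23, SE 0.33, edgeR adjusted p = 0.0346).

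A few called genes also differed between the series' other pair of groups, which hold brain transcripts and again set day 2 (BS2, labelled interparietal bone after brain injury) against a later day (SB4, labelled brain cortex, day 4 after skull injury). Between BS2 and SB4, 10 of 16278 genes tested were higher in BS2 (0.0614%) and 14 lower (0.086%). Of the 303 genes called between SB2 and BS6, 240 could be tested there and 8 were called, all in the direction of the day. Glo1, which clears methylglyoxal (chr17:30584936-30626871, minus strand, mm10), had 2104, 1830 and 2260 counts in SB2 and 805, 780 and 927 in BS6. It had 2018, 1978 and 1698 counts in BS2 and 863, 1213 and 1026 in SB4. Mfap1a, a splicing factor gene (chr2:121491911-121506665, minus strand), had 31, 24 and 23 counts in SB2 and 265, 303 and 284 in BS6, against 38, 34 and 23 in BS2 and 231, 246 and 151 in SB4. For both genes the libraries of day 2 were alike in bone and brain transcripts, and so were the later ones. Gm14018 and Mfap1b, the neighbours of Mfap1a on chromosome 2, were also among the 8, and Mfap1a and Mfap1b are close copies between which reads could be split. What links these genes to the day of sampling was not tested. Whether the animals of the different days came from the same stock is not given in the sources used here, so day and stock cannot be told apart.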

How the data were processed

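The libraries were made from poly(A) RNA and sequenced paired-end. Per the methods, reads were trimmed with fastp and aligned to mm10, and HISAT2 2.1.0 is named in the submitters' processing notes. The authors deposited 1 table of raw counts for 22317 gene symbols in 12 libraries. The counting program, its annotation and strand setting, and whether the batch correction in the methods was applied to these counts are not given in the sources used here. No column belonged to other samples.

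Here the deposited counts were filtered with filterByExpr (minimum count 10), scaled with TMM and tested with edgeR 4.0.16 (quasi-likelihood, robust) in R 4.3.3, with Benjamini-Hochberg adjustment over all genes tested, without a replicate block. SE was obtained from the fold change and its F statistic. Levels are CPM computed here from those counts. DESeq2 1.42.0, limma 3.58.1 (voom with quality weights), other scalings, filters, left-out libraries and a fit of 12 libraries were the alternatives.

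Groups were taken from the labels. Named genes were the 10 highest and 10 lowest log2 fold changes among genes called in both fits with at least 50 CPM and no overlap, members of gene lists, the 5 genes with the most counts per group, and the 10 largest and 10 smallest ratios of BS6-2 to its group. The comparison, the lists and the alternatives were chosen with earlier results of these data known. Oas1a and H2-Q7 were singled out, and 5 lists and the motifs added, after values were seen. Coordinates are those of GENCODE M21 (mm10), which held 21982 symbols once, and promoters those of RefSeq for GRCm38.p6. Some genes, and gene lists whose members the text does not name, are not reported here.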

Additional observations from a re-analysis of the deposited data

Results flagged for a closer look

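A signal stood in the libraries that the comparison does not use. Of the genes called between SB2 and BS6, 8 were called in the same direction between BS2 and SB4, and 0 in the opposite direction. Higher on day 2 were Glo1, Amd-ps4 and Gm13443, and lower were Mfap1a, Mfap1b, Gm14018, H2-Q4 and 4933406C10Rik. Gm13443 had 265, 185 and 239 counts in SB2 and 187, 200 and 133 in BS2, against 1, 5 and 2 in BS6 and 0, 4 and 3 in SB4. Gm14018, a pseudogene, had 0 counts in every library of day 2, 15, 19 and 27 in BS6 and 27, 17 and 13 in SB4. H2-Q4 had 307, 236 and 267 counts in SB2 and 720, 1377 and 583 in BS6, against 8, 11 and 11 in BS2 and 56, 87 and 27 in SB4. What these differences come from was not tested.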

How the results depend on the processing

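The number of genes called depended on the test. Against 121 genes higher and 182 lower with edgeR and all 6 libraries, DESeq2 gave 315 and 743, limma voom with quality weights 266 and 482, an adjusted p without the fold threshold 559 and 373, and a fit of all 12 libraries 326 and 947. Leaving out a library gave 0 to 270 higher and 0 to 397 lower. Without BS6-2, where 270 were higher and 397 lower, the alternatives added after seeing the data were the adjusted p alone, with 1885 and 1489, and leaving out a further library, with 159 to 325 and 205 to 480, with 159 and 205 without SB2-1 and 258 lower without SB2-3. Where the further library was BS6-1 or BS6-3, BS6 had 1 library, assumed to vary like SB2. Other scalings and filters moved these counts by less than 1.5 times, and the median of all genes moved by less than 0.1. With the replicate number as a block 0 genes were called in either direction. Same-numbered libraries had deviations from their group means that correlated at -0.14, 0.053 and -0.02, so no pairing by number was seen. With 3 libraries per group and BS6-2 apart, these values cannot settle whether same-numbered libraries are paired. Of 83 named genes called with all 6 libraries, 0 changed direction under the alternatives run. All 83 lost their call without any one SB2 library and with the block, 65 without BS6-1, 62 without BS6-3, 11 without BS6-2, 9 with total counts only, 7 with limma voom, 5 with all 12 libraries, 4 without a filter and 2 with upper-quartile factors, and Abcg1, Bmp4, H2-D1 and Slc47a1 lost it both with total counts and with limma voom. DESeq2 gave 2 of the 83, Cidec and Gm14018, no adjusted p and lost 0 calls of the others. BS6 without BS6-2 has 2 libraries, and depth limits statements on genes below about 0.2 CPM.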

Other observations

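Some genes had counts that differed between day 2 and the later day in 1 or both pairs of groups. H2-Q7 had 0 or 1 count in each library of SB2 and BS2, 324, 546 and 227 counts in BS6 and 22, 41 and 4 in SB4. Oas1a had 179, 146 and 157 counts in SB2 and 4, 8 and 5 in BS2, and 0 in every library of BS6 and SB4. In its neighbourhood Oas1c had 18, 28 and 21 counts in SB2 and 15, 68 and 46 in BS6, against 22, 23 and 19 in BS2 and 1167, 1294 and 1435 in SB4. Rph3a, a gene of synaptic vesicles, had 8758, 8059 and 7599 counts in BS2 and 155, 230 and 235 in SB4, against 37, 46 and 5 in SB2 and 1, 12 and 0 in BS6. These genes were chosen after their values were seen.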
